A study of Mus musculus with 6 samples.

Results

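Bone morphogenetic protein (BMP) signalling was examined through 10 genes chosen by name from the 34866 rows of the count table: the ligands Bmp2, Bmp4, Bmp6 and Bmp7, the type I receptors Bmpr1a and Bmpr1b, the transducer Smad1 and the inhibitory Smad6, and the homeobox targets Msx1 and Msx2. Every one of the 10 had a row and passed the filter on low counts. The RNA came from forebrain of mouse embryos at E14.5. The 3 libraries labelled mutant carry 1 floxed and 1 null Sap130 allele (f/-) and the 3 controls 1 floxed and 1 wild-type allele (f/+). All 6 embryos carry Emx1-cre, a recombinase expressed in the progenitors of the dorsal telencephalon, so controls too are altered in that lineage, where they retain a single intact allele. Outside that lineage the genotypes differ too, since only the mutants carry the null allele. Sap130 is a subunit of the Sin3 co-repressor complex. The controls are described as littermates, without the litter of each animal.

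BMP ligands bind pairs of type I and type II receptor kinases, which phosphorylate Smad1, Smad5 and Smad9. These join Smad4 and enter the nucleus to activate targets such as the Id and Msx genes and the feedback inhibitors Smad6 and Smad7. In the embryonic forebrain the ligands are produced along the dorsal midline, in the choroid plexus and the adjoining cortical hem, and in the meninges. There the pathway is known for specifying choroid plexus epithelium and patterning the medial cortex. Whole forebrain was sequenced, so fewer cells of a midline type and less RNA per cell cannot be told apart.

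None of the 10 genes passed the test between the groups. In edgeR's quasi-likelihood test at a false discovery rate (FDR) of 0.05, 0 were higher and 0 lower, against 0.138% of the 15216 genes tested (21 genes). At an unadjusted p under 0.05 the count was also 0, against 9.6% of all genes, and likelihood-ratio, limma-voom and DESeq2 tests called 0 as well. DESeq2 gave no adjusted p for Msx2. With the title number of the samples as a block 0 were called, against 0.762% of all genes. Of the log2 fold changes (mutant minus control), 3 lay above and 7 below 0, with a median of -0.06, against -0.0003 over all genes. Their median size regardless of sign was 0.13, against 0.12 over all genes. Bmp7, at 0.01, turned to just below 0 with upper-quartile factors or library totals. None of the 10 is listed among the 369 genes of the authors' deposited table, which reaches an FDR of 0.0994.

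**Figure D1:**
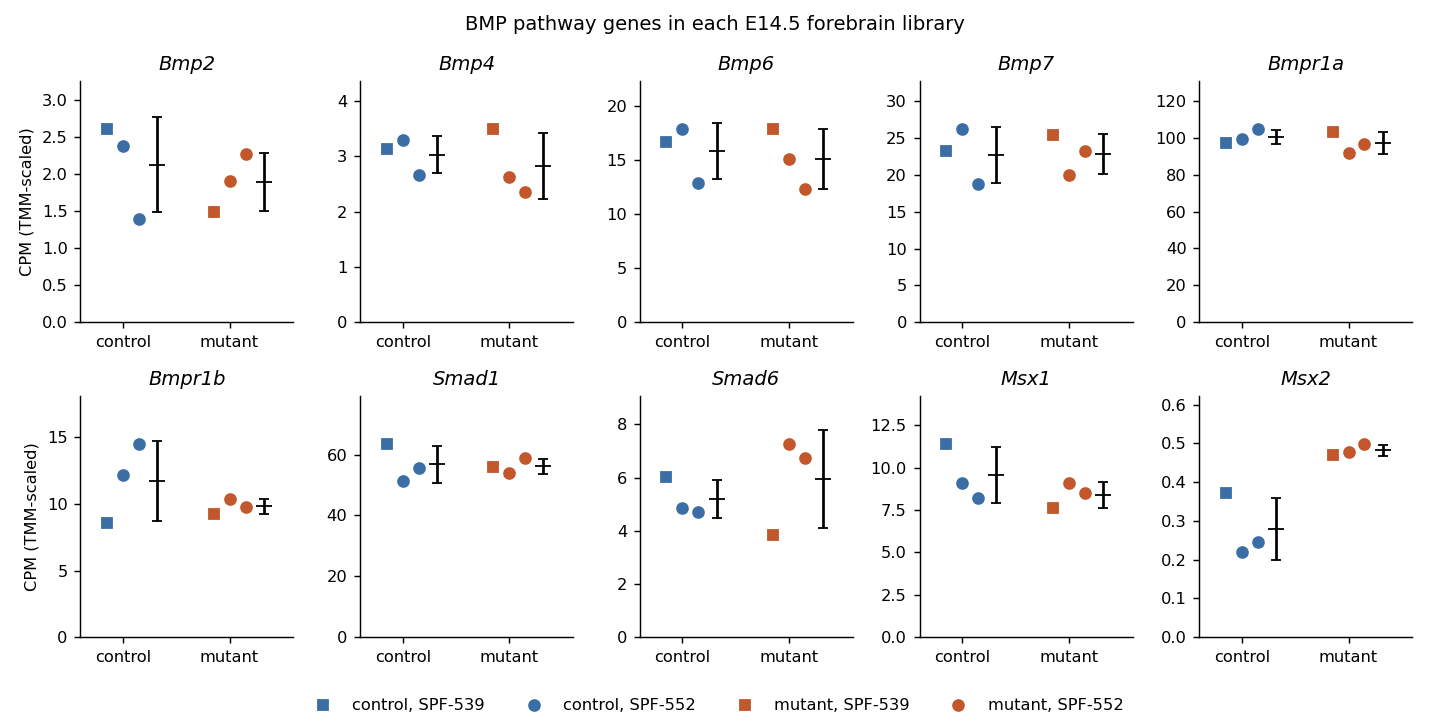
CPM (TMM-scaled counts relative to library size, y axis, linear from 0) of each gene in the 3 control and 3 mutant libraries, with squares for SPF-539 and circles for SPF-552, and bars for mean ± SD. The groups overlap for 9 genes, and only Msx2, at under 0.5 CPM, has every mutant value above every control value.

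The libraries held 20775583 to 25999874 estimated counts. Sap130 itself stood at 82.8, 84.9 and 84.4 CPM in controls and at 137.7, 124.1 and 124.05 CPM in the libraries labelled mutant. This rise of 0.61 in log2 (adjusted p = 0.0116) goes against a loss of the transcript. In gene-level counts, transcript from the altered alleles and an interchange of the control and mutant labels cannot be told apart, and an interchange would reverse every sign below. Each direction is therefore that of the libraries as labelled. Sample titles carry SPF-539 (control replicate 1 and mutant replicate 1) or SPF-552 (the other 4 libraries), and ratios within each number are given where they part. Emx1, a factor that marks the dorsal telencephalon, was present at a mean of 59.2 CPM in controls and 50.05 CPM in mutants. No gene of the 8 marker lists was at 0 in any library.

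Per kilobase of exon, the order of the levels ran from the receptor Bmpr1a (15.5 ± 0.741 CPM per kb, SD, n = 6 libraries) through Smad1 (9.02 ± 0.670), Bmp7 (5.67 ± 0.730), Bmp6 (3.95 ± 0.624) and Msx1 (2.90 ± 0.423). Bmpr1b (1.81 ± 0.368), Smad6 (1.74 ± 0.410) and Bmp4 (1.30 ± 0.197) followed, then Bmp2 (0.564 ± 0.138) and Msx2 (0.116 ± 0.0374). The libraries of Bmp6 and Msx1 overlapped, as did those of Bmpr1b and Smad6 and those of Smad6 and Bmp4. The other 6 pairs of neighbours in this order did not overlap. Among the ligands Bmp7 and Bmp6 thus stood well above Bmp4 and Bmp2, and the broadly used receptor Bmpr1a stood above Bmpr1b in every library. Exons of Bmp4, Bmp6 and Bmpr1a overlap those of other genes, as given below, and the part of such reads in these levels was not tested.

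**Figure D2:**
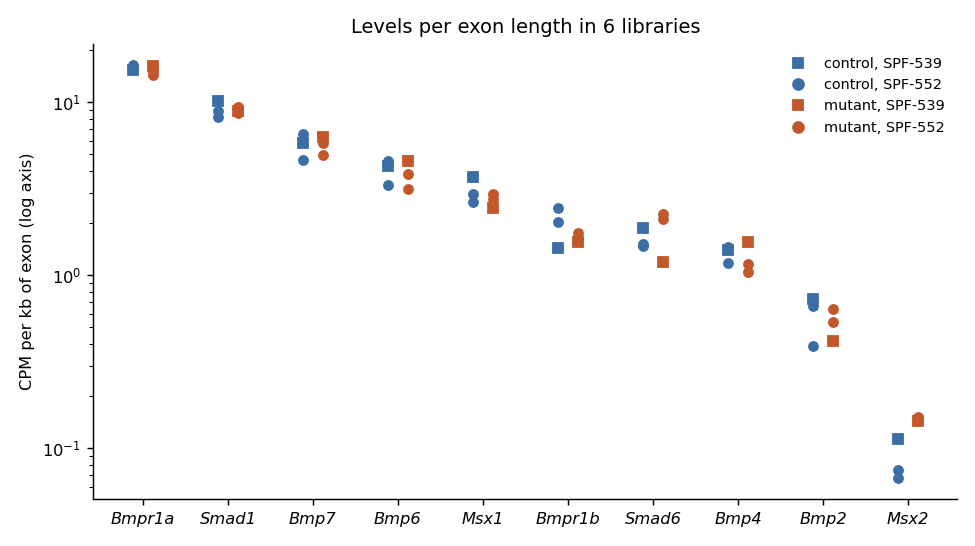
Level of each gene in CPM per kb of merged exon (y axis, log scale) in 6 libraries, coloured by group, with squares for SPF-539 and circles for SPF-552. Genes run from 15.5 for Bmpr1a to 0.116 for Msx2.

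Bmp2, a ligand of the midline and of mesenchyme, was scarce, at 2.60, 2.37 and 1.39 CPM in controls and 1.49, 1.91 and 2.26 CPM in mutants. The lowest value was that of a control, and the groups overlapped throughout (log2 fold change -0.17, SE 0.315, adjusted p = 0.903). Bmp4, the ligand that marks the choroid plaque and dorsal midline, stood at 3.14, 3.29 and 2.66 CPM in controls and at 3.49, 2.63 and 2.35 CPM in mutants. Mutant replicate 1 was the highest of all and the other mutants were the lowest (log2 fold change -0.10, SE 0.240, adjusted p = 0.931). The intervals were wide at these depths. The 95% interval of the log2 fold change ran from -0.86 to 0.52 for Bmp2 and from -0.62 to 0.43 for Bmp4.

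Bmp6 and Bmp7 belong to a different ligand subgroup from Bmp2 and Bmp4. Bmp6 lay at 16.7, 17.8 and 12.9 CPM in controls and at 17.8, 15.04 and 12.3 CPM in mutants. Each group thus held high and low libraries, and the log2 fold change was -0.07 (SE 0.164, 95% interval -0.42 to 0.29, adjusted p = 0.931). An exon of Bmp6 overlaps one of Txndc5 on the opposite strand, and the library kit marks no strand, so reads there cannot be assigned. Bmp4 and Bmpr1a overlap the non-coding genes Gm15217 and Gm17110 in the same way, and Gm15217 was at 0.0136 CPM in controls. Txndc5 was at 65.6 ± 2.31 CPM in controls and 66.8 ± 3.67 CPM in mutants (SD, n = 3). Bmp7, which is also made by meninges, lay at 23.3, 26.2 and 18.7 CPM in controls and at 25.3, 19.96 and 23.3 CPM in mutants. The means of Bmp7 were 22.7 ± 3.76 and 22.9 ± 2.71 CPM (SD, n = 3), and its log2 fold change of 0.01 had a 95% interval from -0.30 to 0.32 (adjusted p = 0.989).

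Bmp2, Bmp4, Bmp6, Bmp7, Smad6 and Msx1 were each lowest among the controls in control replicate 3. The 6 were grouped after their values were seen, and how many of all genes share this order was not counted. The summed level of 14 meningeal markers was lowest in that library too, at 691.2 CPM, against 947.03 and 858.2 CPM in control replicates 1 and 2 and 801.5 to 877.4 CPM in mutants. Sums of endothelial (363.6 CPM), cortical hem (369.2), Cajal-Retzius (467.06), microglial (110.7) and diencephalic markers (458.2) were also lowest among the controls there. Those of choroid plexus and telencephalic markers were highest among the controls there. The part of these sums in the values of the 6 genes was not tested. Summed levels of 12 choroid plexus markers ran from 314.6 to 362.5 CPM in controls and from 273.1 to 357.3 CPM in mutants. Of these 12 genes 0 were called. Their sum was weighted by Ttr, at 169.7, 184.0 and 193.0 CPM in controls and 105.9, 162.6 and 178.1 CPM in mutants.

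Bmpr1a, the type I receptor found in most neural progenitors, was the best measured of the 10, at 96.9, 99.3 and 104.5 CPM in controls and 103.01, 91.6 and 96.6 CPM in mutants. These values interleaved, with a log2 fold change of -0.05 (SE 0.0779, adjusted p = 0.892). Its 95% interval, from -0.22 to 0.12, corresponds to 0.861 to 1.09 times the control level. Bmpr1b, a type I receptor of more restricted expression, was at 8.54, 12.2 and 14.49 CPM in controls and at 9.28, 10.4 and 9.78 CPM in mutants. Control replicate 1 lay below all mutants and the other controls lay above them. The log2 fold change of Bmpr1b was -0.26 (SE 0.181, 95% interval -0.65 to 0.14, adjusted p = 0.709).

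Smad1, which carries the signal from the receptors to the nucleus, stood at 63.4, 51.3 and 55.7 CPM in controls and 55.8, 53.9 and 58.7 CPM in mutants. The mutants all fell inside the range of the controls, and the log2 fold change was -0.02 (SE 0.0943, 95% interval -0.22 to 0.19, adjusted p = 0.974). Smad6, an inhibitory Smad that BMP signalling itself induces, was at 6.02, 4.87 and 4.71 CPM in controls and at 3.84, 7.26 and 6.74 CPM in mutants. Mutant replicate 1 was the lowest of the 6 libraries, and mutant replicates 2 and 3 were the highest. Over all libraries the log2 fold change of Smad6 was 0.19 (SE 0.239, 95% interval -0.33 to 0.71, adjusted p = 0.848). It was 0.55 in the 4 SPF-552 libraries alone (adjusted p = 0.146, in a comparison that called 3.7% of genes) and 0.02 without mutant replicate 2.

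Msx1, a homeobox repressor of the dorsal midline, was at 11.4, 9.08 and 8.19 CPM in controls and at 7.60, 9.12 and 8.51 CPM in mutants. Control replicate 1 was the highest and mutant replicate 1 the lowest, with the 4 others in between (log2 fold change -0.19, SE 0.162, 95% interval -0.54 to 0.17, adjusted p = 0.769). Its paralogue Msx2 was barely present, at 9.01, 5.02 and 6.00 estimated counts in controls and 12.01, 10.01 and 11.01 in mutants. In CPM this is 0.372, 0.220 and 0.246 in controls and 0.471, 0.478 and 0.498 in mutants, and the groups did not overlap. Groups without overlap were found for 16.7% of all genes tested, and with mutants higher for 8.16%, so 1 of 10 is near the background. The log2 fold change of Msx2 was 0.77, with an SE of 0.489, a 95% interval from -0.29 to 1.84 and an adjusted p of 0.674. An exact permutation test (two-sided) gave p = 0.1, which is as small as this design permits.

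**Figure D3:**
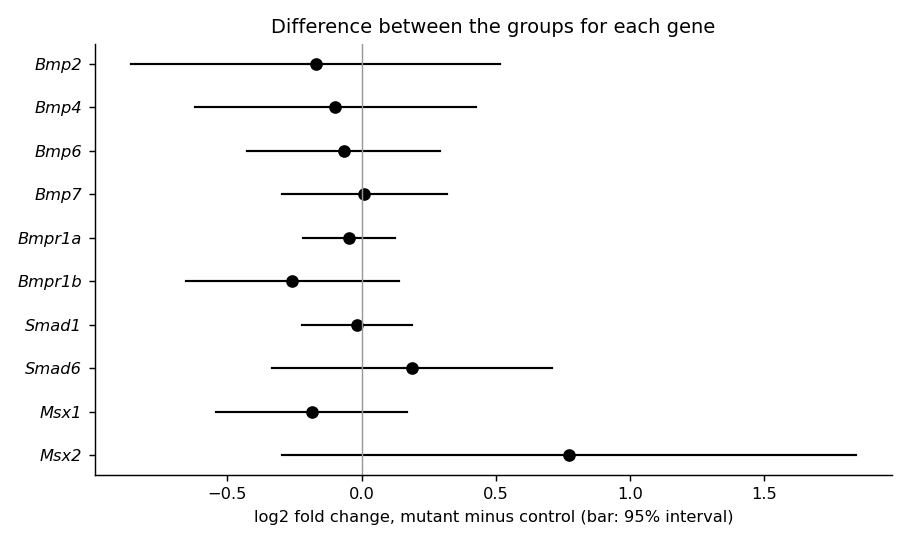
Log2 fold change of each gene (x axis, mutant minus control) with its 95% interval from edgeR's quasi-likelihood fit. All 10 intervals include 0, from the narrowest for Bmpr1a (-0.22 to 0.12) to the widest for Msx2 (-0.29 to 1.84).

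Msx2 had the smallest p of the 10, and the genes whose log2 CPM followed it most closely over the 6 libraries were therefore looked up among 13867 genes that averaged 1 CPM or more. They were 4930590J08Rik (Pearson r = 0.99), Plbd2 (0.99), Rtl5 (0.99), Ulk4 (0.99) and the BMP co-receptor gene Rgma (0.99). These are the highest of many values over 6 points that share their libraries and depth, and the Msx2 profile rests on few counts.

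The ratios of mutant to control within each title number were set side by side for some genes. Within SPF-539 the log2 ratio was -0.80 for Bmp2, -0.65 for Smad6 and -0.58 for Msx1. Within SPF-552 it was 0.19, 0.55 and 0.03 for the same genes. Id1 and Id3, helix-loop-helix inhibitors and textbook BMP targets, were placed beside these 3, and the 5 were grouped only after their values were seen. Id1 was at 9.49, 6.76 and 6.18 CPM in controls and 4.23, 7.02 and 6.02 CPM in mutants, which gives log2 ratios of -1.16 in SPF-539 and 0.01 in SPF-552. Id3 was at 17.6, 14.8 and 16.2 CPM in controls and 9.67, 15.9 and 14.8 CPM in mutants, which gives -0.86 and -0.01. For all 5 genes control replicate 1 was the highest control and mutant replicate 1 the lowest mutant. This order was found for 14.3% of all genes tested (2173 genes), and for 4 of the 10 BMP genes, the other being Msx2. It was also found for 3 of 12 endothelial genes, such as Sox18 (-0.66 in SPF-539 and 0.02 in SPF-552), for 3 of 14 meningeal genes, such as Twist1 (-0.67 and 0.09), and for 10 of 15 diencephalic genes. It held for 6 of 14 BMP target and roof plate factors, Id1 and Id3 included, and for 4 of 10 Cajal-Retzius genes. Elsewhere it held for 3 of 9 other receptors, 1 of 14 other Smads and regulators and 2 of 20 secreted antagonists. Hem genes had it in 2 of 11 and telencephalic genes in 2 of 14. It was found for 0 of 12 choroid plexus genes, 0 of 12 microglial genes and 0 of 7 other ligands. Other genes that BMP signalling is known to induce had other ratios, with 0.33 and 1.04 for Msx2, 0.22 and 0.18 for Id4 and -0.15 and 0.24 for the inhibitory Smad7. These SPF-539 ratios compare 1 library with 1 and have no replicate check, and what else set these libraries apart was not tested. Bmpr1a, Bmpr1b, Bmp4, Bmp6 and Bmp7 did not share this order, with log2 ratios in SPF-539 of 0.09, 0.12, 0.15, 0.10 and 0.12. Smad1 did not share it either, with log2 ratios of -0.18 in SPF-539 and 0.08 in SPF-552.

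**Figure D4:**
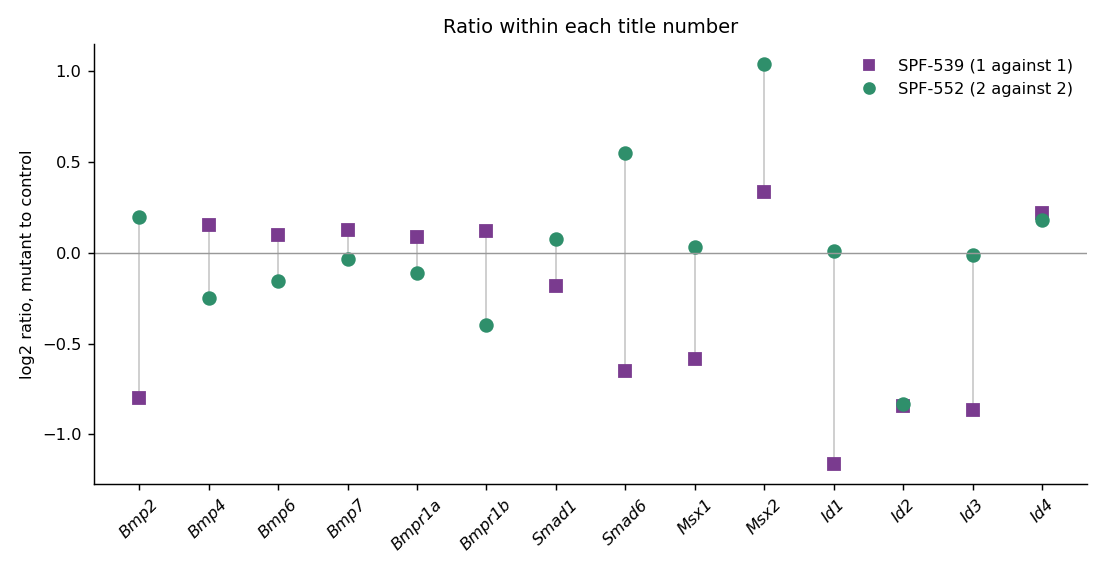
Log2 ratio of mutant to control (y axis) within SPF-539 (squares, 1 library against 1) and within SPF-552 (circles, 2 against 2) for the 10 genes and 4 Id genes. Bmp2, Smad6, Msx1, Id1 and Id3 lie between -1.16 and -0.58 in SPF-539 and between -0.01 and 0.55 in SPF-552, while Id2 lies at -0.85 and -0.83.

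Promoter sequence is shown for Smad6 and Msx1, whose SPF-539 ratios were among the lowest of the 10, and for the midline ligand Bmp4, whose ratio there was above 0. Each line gives the 250 bases before the annotated start, 5′ to 3′ on the minus strand, from RefSeq on GRCm38.p6 (chr9:64022060-64022309 for Smad6, chr5:37824586-37824835 for Msx1 and chr14:46390670-46390919 for Bmp4). Capitals mark matches on either strand to GGAGCC or GGCGCC, GC-rich sequences bound by Smad1 and Smad5, or to CAGAC, which contains the Smad-binding core. The motifs do not overlap each other in these windows.
Smad6: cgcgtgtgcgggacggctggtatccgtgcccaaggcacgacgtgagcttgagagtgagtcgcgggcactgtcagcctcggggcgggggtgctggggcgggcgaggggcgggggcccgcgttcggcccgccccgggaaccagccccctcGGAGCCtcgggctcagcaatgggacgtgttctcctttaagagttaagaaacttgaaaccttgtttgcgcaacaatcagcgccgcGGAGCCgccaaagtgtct
Msx1: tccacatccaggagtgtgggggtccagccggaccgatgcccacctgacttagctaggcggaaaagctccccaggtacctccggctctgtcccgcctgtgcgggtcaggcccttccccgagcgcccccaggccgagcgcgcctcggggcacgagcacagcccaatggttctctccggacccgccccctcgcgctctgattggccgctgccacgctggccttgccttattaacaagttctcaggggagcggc
Bmp4: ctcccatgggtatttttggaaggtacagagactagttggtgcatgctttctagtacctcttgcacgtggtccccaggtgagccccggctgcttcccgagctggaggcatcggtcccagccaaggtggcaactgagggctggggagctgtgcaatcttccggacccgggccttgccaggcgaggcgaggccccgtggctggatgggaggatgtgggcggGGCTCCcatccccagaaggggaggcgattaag
Smad6 holds 2 matches to GGAGCC, Bmp4 holds 1, and Msx1 holds 0 matches to any of the 3 motifs. Of 32851 windows of this length in the table, 26% hold GGAGCC, 9.59% hold GGCGCC and 42.2% hold CAGAC. Of the 10 genes 8 have entries there, and among their 10 windows 5, 1 and 3 hold these motifs. Several of these windows belong to Bmpr1b, and some of those overlap each other, so windows are not separate genes. By gene, GGAGCC lies in Bmp4, Bmpr1b, Msx2 and Smad6, GGCGCC in Bmpr1a, and CAGAC in Bmp6 and Bmpr1b. A match is only these letters in this window.

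The rest of the pathway was compared by role over 64 tested genes of 73 written down. Of these 0 were called higher and 1, Id2, was called lower, against 0.0263% and 0.112% of all genes in these directions. At an unadjusted p under 0.05 there were 11 higher and 1 lower, against 5.22% and 4.38% of all genes. The median log2 fold change of the 64 was 0.07, with 42 above 0 (65.6%) and 22 below, against a median of -0.0003 and 49.9% above 0 for all genes.

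Id2, an inhibitor of bHLH factors that responds to BMP among other signals, was at 55.3, 60.7 and 58.06 CPM in controls and at 30.8, 31.6 and 35.1 CPM in mutants. Every mutant lay below every control, and the log2 fold change was -0.84 (SE 0.0904, adjusted p = 0.00387). It was nearly alike within SPF-539 (-0.85) and SPF-552 (-0.83), unlike Id1 and Id3. The call was lost without control replicate 2 (adjusted p = 0.0578) or mutant replicate 2 (adjusted p = 0.0536), with log2 fold changes of -0.80 and -0.82. The authors' deposited table gives Id2 a log2 fold change of -0.84 as well. Id4, a family member of neural progenitors, was at 370.5 ± 19.8 CPM in controls and 423.1 ± 19.4 CPM in mutants (SD, n = 3; log2 fold change 0.19, adjusted p = 0.462).

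Other factors of the roof plate and dorsal midline did not pass. Zic1 and Zic2, zinc-finger genes of the dorsal neural tube and midline, had log2 fold changes of 0.23 (adjusted p = 0.397) and 0.22 (adjusted p = 0.46). Lmx1b, a LIM-homeobox gene that was picked out after its values were seen, was at 4.28, 1.73 and 1.56 CPM in controls and 2.64, 7.29 and 6.09 CPM in mutants. Mutant replicate 1 lay below control replicate 1, whereas the mutants of SPF-552 stood above their controls (log2 fold change 1.07, SE 0.4495, adjusted p = 0.484). In SPF-552 alone it was 2.04 (adjusted p = 0.000257, in a comparison that called 3.7% of genes). The summed level of 15 diencephalic markers was 458.2 to 495.0 CPM in controls, 542.2 CPM in mutant replicate 1 and 625.02 and 687.9 CPM in mutant replicates 2 and 3. This sum was weighted by Tcf7l2, which averaged 235.4 CPM in controls and 308.0 CPM in mutants. Of the 15, 14 lay above 0 and 1 below, with 0 called. At an unadjusted p under 0.05, 8 were higher and 0 lower, against 5.22% and 4.38% of all genes. Lmx1b is expressed in the diencephalon too, and the part of these markers in its values was not tested.

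**Figure D5:**
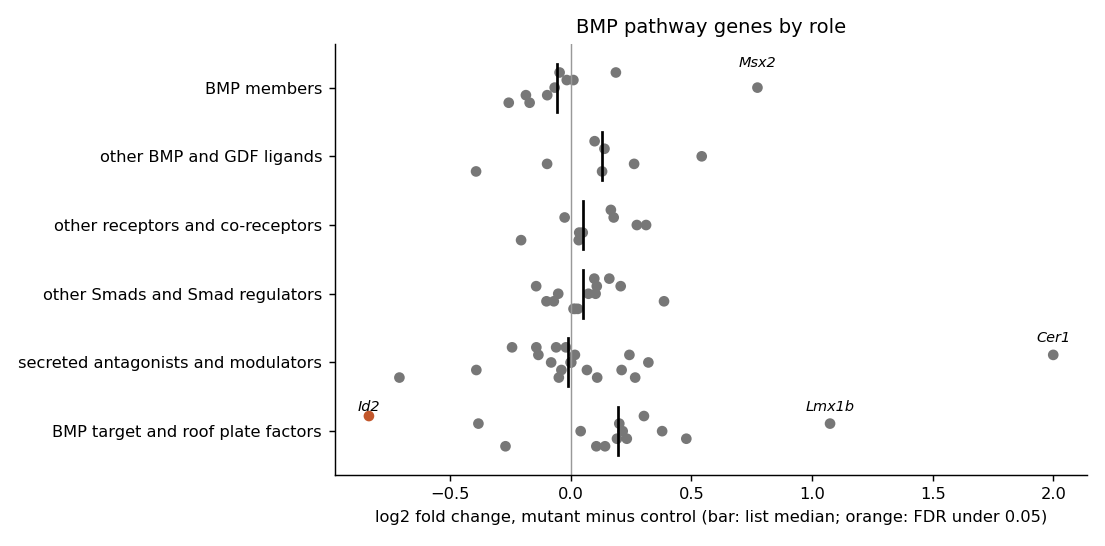
Log2 fold change (x axis, mutant minus control) of every tested gene in 6 role lists, with a bar at each list's median and orange for an FDR under 0.05. Only Id2 is orange, at -0.84, and the medians run from -0.06 to 0.20.

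Among the other ligands 7 of 14 had enough counts to be tested and 0 were called. The 4 of smallest p were Gdf5 (log2 fold change -0.39, adjusted p = 0.689), the secreted regulator of neurogenesis Gdf11 (0.10, adjusted p = 0.801), Bmp8b (0.54, adjusted p = 0.805) and Bmp3 (0.13, adjusted p = 0.85). The median of the 7 was 0.13. Bmp5, of the same subgroup as Bmp6 and Bmp7 and picked after its values were seen, stood at 5.66 ± 0.703 CPM in controls and 5.31 ± 0.279 CPM in mutants (SD, n = 3).

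Of 9 other receptors and co-receptors 0 were called, and the median was 0.05. The activin and BMP type II receptor gene Acvr2b was at 48.6, 48.5 and 53.5 CPM in controls and 65.8, 61.7 and 59.4 CPM in mutants, without overlap (log2 fold change 0.31, SE 0.0843, adjusted p = 0.213). Rgma, a co-receptor that strengthens BMP signalling, was at 144.9, 130.1 and 130.5 CPM in controls and 160.6, 163.3 and 166.4 CPM in mutants, also without overlap. Its log2 fold change of 0.27 did not pass (SE 0.0760, adjusted p = 0.228). It passed in SPF-552 alone (0.34, adjusted p = 0.00217), in a comparison that called 3.7% of genes. It also passed without mutant replicate 1 (0.29, adjusted p = 0.0436), where 110 genes were called higher and 220 lower. Rgmb, a relative of Rgma, had 0.18 (adjusted p = 0.49), and the type II receptor gene Bmpr2 had 0.17 (adjusted p = 0.665).

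Of 14 other Smads and Smad regulators 0 were called, with a median of 0.05. The kinase gene Hipk2, whose product interacts with Smads, had a log2 fold change of 0.39 (SE 0.107, adjusted p = 0.225). It passed with DESeq2 (adjusted p = 0.0465), which called 87 genes higher and 107 lower. The authors' deposited table lists Hipk2 at 0.41. Zfp423, which encodes a Smad partner in BMP responses, had 0.21 (adjusted p = 0.459). The ubiquitin ligase gene Smurf1 had 0.16 (adjusted p = 0.675) and Smad5, which transduces the signal alongside Smad1, had -0.10 (adjusted p = 0.74).

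Of 20 tested secreted antagonists and modulators 0 were called, with a median of -0.01. The widest difference in this list was that of Cer1, a secreted BMP and Nodal antagonist known from the early embryo, at 6.01, 1.003 and 13.02 estimated counts in controls and 27.1, 26.1 and 24.03 in mutants. The groups did not overlap, and the log2 fold change was 1.999 (SE 0.568, adjusted p = 0.236). The likelihood-ratio test called it (adjusted p = 0.0161, in a comparison that called 0.986% of genes). Crim1, which binds BMPs at the membrane, had 0.21 (adjusted p = 0.494), and the chordin-cleaving protease gene Tll1 had 0.32 (adjusted p = 0.533). The BMP antagonist gene Sostdc1 was at 6.02 ± 0.791 CPM in controls and 4.59 ± 0.635 CPM in mutants (SD, n = 3; log2 fold change -0.39, adjusted p = 0.548).

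Markers of cells that produce or receive BMPs were set beside these values. The 11 cortical hem genes had a median log2 fold change of 0.16 with 0 called, and a summed level of 369.2 to 405.3 CPM in controls and 358.8 to 361.4 CPM in mutants. Of the 11, 9 lay above 0. With an unadjusted p under 0.05 there was 1 higher, Wnt8b, and 1 lower, Wnt7b. Wnt8b was at 8.62, 8.91 and 6.76 CPM in controls and 9.28, 14.4 and 17.7 CPM in mutants. Its log2 fold change was 0.77 (adjusted p = 0.23), and the authors' deposited table lists it at 0.69. The hem sum was weighted by Wnt7b, a Wnt ligand gene that averaged 195.2 CPM in controls and 153.5 CPM in mutants. The other 10 genes summed to 185.5 to 191.9 CPM in controls and 194.3 to 214.9 CPM in mutants. The 10 Cajal-Retzius genes had a median of 0.32 with 0 called, and summed to 467.06 to 479.4 CPM in controls and 527.1 to 670.5 CPM in mutants. Of the 10, 8 lay above 0 and 2 below. With an unadjusted p under 0.05 there were 5 higher and 0 lower, against 5.22% and 4.38% of all genes. Ebf2 and Ebf3 had log2 fold changes of 0.72 (adjusted p = 0.157) and 0.70 (adjusted p = 0.2). Both are in the authors' deposited table, as is Lhx1 (0.46, adjusted p = 0.361). The Cajal-Retzius sum was weighted by Reln, at 264.7, 286.0 and 281.1 CPM in controls and 460.1, 334.2 and 284.5 CPM in mutants. The parting of the sums therefore does not describe each gene of the list. The 12 endothelial genes, of a cell type in which Smad6 is also expressed, summed to 363.6 to 409.4 CPM in controls and 375.7 to 391.3 CPM in mutants. The 12 microglial genes summed to 110.7 to 118.6 CPM and 110.5 to 119.3 CPM. For the 14 telencephalic genes the sums did not overlap, at 2346 to 2370 CPM in controls and 1906 to 1979 CPM in mutants. Of the 14, 8 lay below 0 and 6 above, and 4 were called lower, against 0.112% of all genes. The 10 BMP genes together summed to 223.5 to 232.3 CPM in controls and 212.3 to 228.1 CPM in mutants. Most of this sum came from Bmpr1a and Smad1, at means of 98.7 and 56.5 CPM over all libraries.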

How the data were processed

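Total RNA of E14.5 forebrain was made into TruSeq v2 libraries, a kit that marks no strand, per the labels' protocols. In the submitters' processing notes stand mm10 (GRCm38), TopHat2 2.0.9, HTSeq 0.5.4p5 and edgeR 3.4.2, with no roles. In the deposited count table the authors give estimated counts for each gene, unscaled, of which 22.7% to 24.9% per library are not whole, and no source used here names the tool behind them. In the authors' deposited comparison table each gene has a log2 fold change, a mean log2 CPM, a likelihood-ratio score and a p-value with its FDR.

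Identifiers were matched without version to GENCODE M21 (99.19% of 34866 rows). Rounded estimated counts of all 6 libraries were tested with R 4.3.3 and edgeR 4.0.16, using filterByExpr (count 10, total 15), TMM factors, a robust quasi-likelihood fit and p-values adjusted by Benjamini-Hochberg over 15216 genes, called at an FDR of 0.05. CPM is relative to TMM-scaled library sizes. A prior count of 2 was added for log2 CPM, and 0.5 CPM for the permutation test. The 95% intervals use the fit's SE and degrees of freedom. Biological variation between libraries had a coefficient of 12.3%, and an SE of a log2 fold change was 0.125 at the median. Ratios within a title number add 0.01 CPM. Levels per kb use merged GENCODE exons. Groups follow the Sap130 genotype in the labels, and replicates are numbered by accession and pair nothing.

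Besides the 10 genes and Sap130, the rule for named genes took called genes and up to 4 of smallest p in each of 5 pathway lists. The members and lists were chosen with earlier results of these data known. Alternatives were other scaling factors, DESeq2 1.42.0, limma-voom (limma 3.58.1), edgeR's likelihood-ratio test, other filters, an FDR of 0.1, a block for the title number, the SPF-552 libraries only, and each library left out. Scripts were tested on simulated data. Figures were drawn with matplotlib 3.10.9. Some genes of the telencephalic list are not reported here.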

Additional observations from a re-analysis of the deposited data

Results flagged for a closer look

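For 4 of the 10 genes the single SPF-539 pair and the SPF-552 libraries pointed in opposite directions, in every library of SPF-552. The same was seen for 20.8% of all genes tested (3172 genes). The signs of the 2 ratios alone were opposite for 9 of the 10 genes, against 46.7% of all genes. The difference between the title numbers was not tested, and SPF-539 is 1 library against 1. The log2 ratio of mutant to control was -0.6486 in SPF-539 and 0.5457 in SPF-552 for the inhibitory Smad6. It was 0.1202 and -0.3958 for the receptor Bmpr1b, 0.1527 and -0.2505 for the ligand Bmp4, and 0.0875 and -0.115 for the receptor Bmpr1a.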

How the results depend on the processing

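Under every alternative run, 0 of the 10 BMP genes were called in either direction, and the smallest adjusted p was 0.146, for Smad6 in the SPF-552 libraries. Msx2 was not tested with a filter of 1 CPM in 3 libraries, and DESeq2 gave it no adjusted p (unadjusted p = 0.289). The sign of Bmp7 turned with upper-quartile factors (-0.0035) and library totals (-0.002). In SPF-552 alone it turned for Bmp2 (0.1547), Bmp7 (-0.0513), Smad1 (0.0755) and Msx1 (0.0301). With each library left out in turn, log2 fold changes ran from -0.4008 to 0.0048 for Bmp2, -0.2825 to 0.0163 for Bmp4, -0.2091 to 0.0595 for Bmp6, -0.1115 to 0.1244 for Bmp7 and -0.0845 to 0.0711 for Smad1. They ran from -0.0913 to -0.0102 for Bmpr1a, -0.4403 to -0.0752 for Bmpr1b, 0.0159 to 0.4274 for Smad6, -0.2862 to -0.0387 for Msx1 and 0.6348 to 1.0325 for Msx2. Of the other pathway genes, those called higher went from 0 to 1 with the likelihood-ratio test or DESeq2 and to 4 in SPF-552 alone, and to between 0 and 1 on leaving out a library. Those called lower stood between 0 and 1 on leaving out a library. Over all genes, 56 were called higher with the likelihood-ratio test, 87 with DESeq2 and 237 of 15236 in SPF-552 alone.

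The count over all genes, 4 higher and 17 lower, depended far more on the setting. It was 56 and 94 with the likelihood-ratio test, 87 and 107 with DESeq2, 2 and 9 with limma-voom, 47 and 83 with no filter, 38 and 78 with the title-number block, 12 and 44 at an FDR of 0.1, and 237 and 327 in SPF-552 alone. With library totals 6 were higher. On leaving out each library it ran from 0 to 110 higher and from 3 to 220 lower, with both highest values without mutant replicate 1. The cause was not tested. The title number is the label that both groups share, and no other number in the labels pairs the libraries. Depth limits scarce genes such as Msx2 and Cer1, and 7 of 14 other ligands had too few counts to be tested.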
